A study of Mus musculus with 8 samples.

Results

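The 6 genes described here are those of the GDNF family of receptors and ligands named Gfra1, Gfra2, Ret, Gdnf, Nrtn and Ncam1, out of 29647 genes listed with values in untreated hair matrix keratinocytes and 29246 listed after 5-aza. They were found by gene name in both deposited tables, and the set was chosen on measured values: Gfra1 ranked 12th by p-value in the authors' deposited table of untreated libraries, and the other 5 genes encode its partners and closest relatives. The untreated differences between genotypes are therefore given as a description, with no test, and tests were run on the 5-aza libraries, which are separate libraries.

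The series compared 4 groups with 2 RNA sequencing libraries each, all from cells labelled as hair matrix keratinocytes, the proliferating epithelium in the bulb of the follicle, harvested at postnatal day 4.5. The untreated double knockout (DKO) group lacked Tet2 and Tet3, enzymes that oxidise 5-methylcytosine, through a Krt14-Cre transgene, and the untreated wild-type (WT) group was labelled WT alone, with no Cre named. The DKO and WT groups after 5-aza had the same genotypes and received 50 µg of 5-aza, an inhibitor of DNA methyltransferases, under the skin at postnatal day 2.5. The Krt14 promoter is active in basal keratinocytes, so deletion is directed at the epithelium and its descendants and not at dermal cells.

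GDNF and neurturin, the product of Nrtn, are secreted growth factors. GDNF binds mainly the membrane-anchored co-receptor GFRα1 and neurturin mainly GFRα2, and the complex of ligand and co-receptor activates the receptor tyrosine kinase RET. GDNF bound to GFRα1 can also signal without RET through the neural cell adhesion molecule NCAM, encoded by Ncam1. The family is best known from the enteric nervous system, the kidney and the male germ line. In mouse skin, these receptors have been studied in the hair follicle and in sensory neurons, and Ncam1 is a known marker of the dermal papilla, the group of dermal cells that the hair matrix surrounds.

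Levels are FPKM, reads scaled to gene length and to the library total, as deposited by the authors. Each difference subtracts the WT mean of log2(FPKM + 1) from the DKO mean. It is given with a standard error (SE). Because of the added 1 it understates the change, most for genes below about 1 FPKM but also for genes at a few FPKM. Library totals were 19528602 to 22837436 reads in untreated libraries and 39493929 to 58353167 after 5-aza, of which listed genes held 55.8 to 62% and 38.4 to 42.4%. The 2 tables were processed differently, so levels before and after 5-aza are set side by side without a test. Separate animals are not stated for the 2 libraries of a group, and a p-value here speaks only of the variation from library to library. In DKO, Tet3 was 6.92 and 7.31 FPKM against 11.8 and 11.4 FPKM in WT without treatment, and 6.54 and 5.99 against 10.4 and 11.5 FPKM after 5-aza. Tet2 had DKO values of 2.72 and 2.55 FPKM against WT values of 3.23 and 3.28 FPKM untreated, so neither gene was absent at the level of the whole gene. In untreated libraries replicate 1 of each genotype had high Xist (74.4 FPKM in DKO, 82.1 in WT) and replicate 2 had low Xist (1.19 and 0.327). Sex make-up thus matched by replicate number, but no pairing of libraries is stated. Over all tested genes, deviations of same-numbered untreated libraries from their group means correlated at 0.03 between genotypes. Ratios by replicate number are therefore descriptions and no paired evidence. After 5-aza Xist was at 4.6 and 3.65 FPKM in DKO against 16.9 and 23.1 FPKM in WT, and the Y-linked Ddx3y at 2.08 and 2.0 against 1.24 and 0.917 FPKM. Sex make-up thus differed between the 5-aza genotypes, and its part in the members' values was not tested.

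Gfra1 (ENSMUSG00000025089, chromosome 19, 58235604 to 58455909, minus strand, GRCm38), the co-receptor that binds GDNF, was at 1.54 and 1.37 FPKM in untreated DKO libraries and at 4.91 and 4.5 FPKM in untreated WT libraries. These values came from 631 and 493 reads in DKO and from 2065 and 1889 reads in WT. Both DKO libraries lay below both WT libraries, with a wide gap between them. The mean was 1.46 ± 0.121 FPKM in DKO and 4.7 ± 0.288 FPKM in WT (SD, n = 2 each), 3.23-fold lower in DKO, and DKO over WT was 0.314 in replicate 1 and 0.304 in replicate 2. The log2 difference was -1.22 ± 0.096 (SE). In the authors' deposited table it was -1.72 ± 0.15, with a Benjamini-Hochberg adjusted p of 3.22e-26 by DESeq2, which is the value that chose the gene.

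After 5-aza Gfra1 was at 0.187 and 0.448 FPKM in DKO and at 1.06 and 0.426 FPKM in WT, from 136 and 482 reads against 923 and 360. The genotypes overlapped, because DKO replicate 2 exceeded WT replicate 2. The log2 difference of -0.39 ± 0.21 had the same sign as in untreated libraries and did not pass the threshold (limma, Benjamini-Hochberg adjusted p = 0.673). In the authors' deposited table the 5-aza difference was -1.28 ± 0.84 with an adjusted p of 1.0 by DESeq2. With 0.1 added in place of 1 the difference after 5-aza was -0.98, and in untreated libraries -1.63. A single library weighed on the 5-aza value: without WT replicate 1 the difference was -0.12, and without WT replicate 2 it was -0.65.

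The DNA just before the RefSeq transcript starts of 3 members is shown because the mutated enzymes and 5-aza both act on cytosine methylation, which in mammals falls mainly on the dinucleotide CG. These are the 62 bases before each RefSeq start in GRCm38.p6, 5′ to 3′ on the gene's own strand, with each CG in capitals. No methylation was measured here, and the count of CG is only a property of the sequence. The positions are chr19:58455399-58455460 on the minus strand for Gfra1, chr15:7809986-7810047 and chr15:7813665-7813726 on the plus strand for the 2 starts of Gdnf, and chr17:56757549-56757610 on the minus strand for Nrtn. RefSeq starts differ from the ends of the deposited genes: the Gfra1 stretch and the second Gdnf stretch lie inside the deposited gene interval, and the other stretches lie outside it.
Gfra1: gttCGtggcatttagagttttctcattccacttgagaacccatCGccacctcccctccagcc
Gdnf, first start: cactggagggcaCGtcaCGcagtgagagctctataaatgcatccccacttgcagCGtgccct
Gdnf, second start: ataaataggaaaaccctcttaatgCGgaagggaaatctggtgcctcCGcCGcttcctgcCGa
Nrtn: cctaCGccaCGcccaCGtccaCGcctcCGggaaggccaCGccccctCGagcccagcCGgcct

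Gfra1 holds 2 CG in these bases and Nrtn holds 8, the most of the 4 stretches. CG reads the same on both strands, so 1 search covers both. Over the whole RefSeq window of 300 bases, 250 before and 50 after the start, Gfra1 had 12 CG, and 39.6% of the 32851 windows in the RefSeq table had at least as many. The 2 Gdnf windows had 11 and 22 CG (41.4% and 23.1% of windows had at least as many), and Nrtn had 28 (14.2%). The median window held 7.0 CG and 94.6% of windows held at least 1. Gfra2, Ret and Ncam1 are named without a window.

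Gfra2 (ENSMUSG00000022103, chromosome 14, 70890120 to 70979838, plus strand), the co-receptor that binds neurturin, was at 1.67 and 1.57 FPKM in untreated DKO and at 1.81 and 2.1 FPKM in untreated WT. Both DKO libraries were below both WT libraries, and DKO over WT was 0.83 for the means, 0.923 in replicate 1 and 0.748 in replicate 2. Its log2 difference, -0.17 ± 0.098 (SE), was a fraction of that of Gfra1, and in the authors' deposited table it was -0.29 ± 0.23 with an adjusted p of 0.999 by DESeq2. After 5-aza the 15 and 87 reads of DKO and the 119 and 55 reads of WT gave 0.0607 and 0.238 against 0.403 and 0.192 FPKM, and the genotypes overlapped. DKO over WT was 0.502 after 5-aza, further from 1 than without treatment. On the log2(FPKM + 1) scale, which compresses values this low, the 5-aza difference was -0.17 ± 0.11 (limma, Benjamini-Hochberg adjusted p = 0.728), and with 0.1 in place of 1 it was -0.72, against -0.25 untreated. In the authors' deposited table it was -1.03 ± 0.69 with an adjusted p of 1.0 by DESeq2.

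The ratio of the 2 co-receptors differed between untreated genotypes. Gfra1 was 0.923 and 0.871 times the level of Gfra2 per length in DKO, against 2.72 and 2.14 times in WT. Gfra1 was thus the higher co-receptor in untreated WT and slightly the lower one in untreated DKO. After 5-aza the ratio was 3.08 and 1.88 in DKO and 2.63 and 2.22 in WT, and the genotypes overlapped.

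Ret (ENSMUSG00000030110, chromosome 6, 118151745 to 118197718, minus strand), the signalling receptor, was at 0.468 and 0.832 FPKM in untreated DKO and at 0.327 and 0.598 FPKM in untreated WT. The genotypes overlapped. Replicate 2 was the higher library in each genotype, and DKO over WT was 1.43 in replicate 1 and 1.39 in replicate 2. The log2 difference was 0.17 ± 0.15 (SE). After 5-aza Ret was at 1.1 and 0.75 FPKM in DKO and at 0.49 and 0.665 FPKM in WT, from 431 and 434 reads against 229 and 302. Here both DKO libraries lay above both WT libraries, and the mean was 0.925 ± 0.248 FPKM in DKO and 0.577 ± 0.124 FPKM in WT (SD, n = 2 each), 1.6 times as high. The difference of 0.28 ± 0.12, or 0.59 with 0.1 added in place of 1, did not pass the threshold over all genes (limma, Benjamini-Hochberg adjusted p = 0.59). In the authors' deposited table it was 0.61 ± 0.28, with an unadjusted p of 0.0335 and an adjusted p of 1.0 by DESeq2.

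Ret thus stood on the other side of 0 from Gfra1 in both tables. Gfra1 per length was 3.3 and 1.65 times Ret in untreated DKO, against 15 and 7.53 times in untreated WT. After 5-aza the ratio was 0.17 and 0.597 in DKO and 2.17 and 0.641 in WT, so Ret was above Gfra1 in both DKO libraries and in 1 of the 2 WT libraries. No test was made of these ratios.

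Of the ligands, Gdnf (ENSMUSG00000022144, chromosome 15, 7810846 to 7837575, plus strand) was the lowest of the 6 genes in all 4 groups. It was at 0.233 and 0.223 FPKM in untreated DKO and at 0.215 in each untreated WT library, from 19 and 16 reads against 18 and 18. The DKO libraries were nominally above the WT libraries, but a difference of this size was not detectable at this depth. After 5-aza the values were 0.131 and 0.121 FPKM in DKO and 0.0866 and 0.0951 FPKM in WT, from 19 and 26 against 15 and 16 reads. The groups did not overlap, and the difference of 0.05 ± 0.026 did not pass the threshold (limma, Benjamini-Hochberg adjusted p = 0.69).

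Nrtn (ENSMUSG00000039481, chromosome 17, 56751325 to 56757530, minus strand), which encodes neurturin, was the higher ligand throughout. It was at 2.6 and 2.06 FPKM in untreated DKO and at 2.19 and 1.64 FPKM in untreated WT, and the genotypes overlapped. Replicate 1 was the higher library of each genotype, and DKO over WT was 1.19 and 1.26 in replicates 1 and 2. After 5-aza it was at 1.07 and 1.81 FPKM in DKO and at 1.64 and 1.16 FPKM in WT, with a difference of 0.02 ± 0.19 whose sign turned under both other scalings (limma, Benjamini-Hochberg adjusted p = 0.991). Nrtn per length was 11.2 and 9.22 times Gdnf in untreated DKO against 10.2 and 7.6 times in untreated WT, and 8.15 and 14.9 times in DKO against 19.0 and 12.1 times in WT after 5-aza.

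Ncam1 (ENSMUSG00000039542, chromosome 9, 49502136 to 49798925, minus strand), the adhesion molecule that can serve GFRα1 in place of RET, was the highest member in untreated cells. It was at 4.58 and 4.3 FPKM in DKO and at 5.55 and 5.84 FPKM in WT, from 2214 and 1827 reads against 2760 and 2896. Both DKO libraries were below both WT libraries, with DKO over WT of 0.825 and 0.736 in replicates 1 and 2. The log2 difference was -0.3 ± 0.087 (SE), and in the authors' deposited table it was -0.39 ± 0.12 with an adjusted p of 0.1 by DESeq2. After 5-aza it was at 0.492 and 1.1 FPKM in DKO and at 1.46 and 0.597 FPKM in WT, and the genotypes overlapped. That difference, -0.16 ± 0.27, turned positive without DKO replicate 1 (0.08) or without WT replicate 1 (0.15) and did not pass the threshold (limma, Benjamini-Hochberg adjusted p = 0.905).

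**Figure D1:**
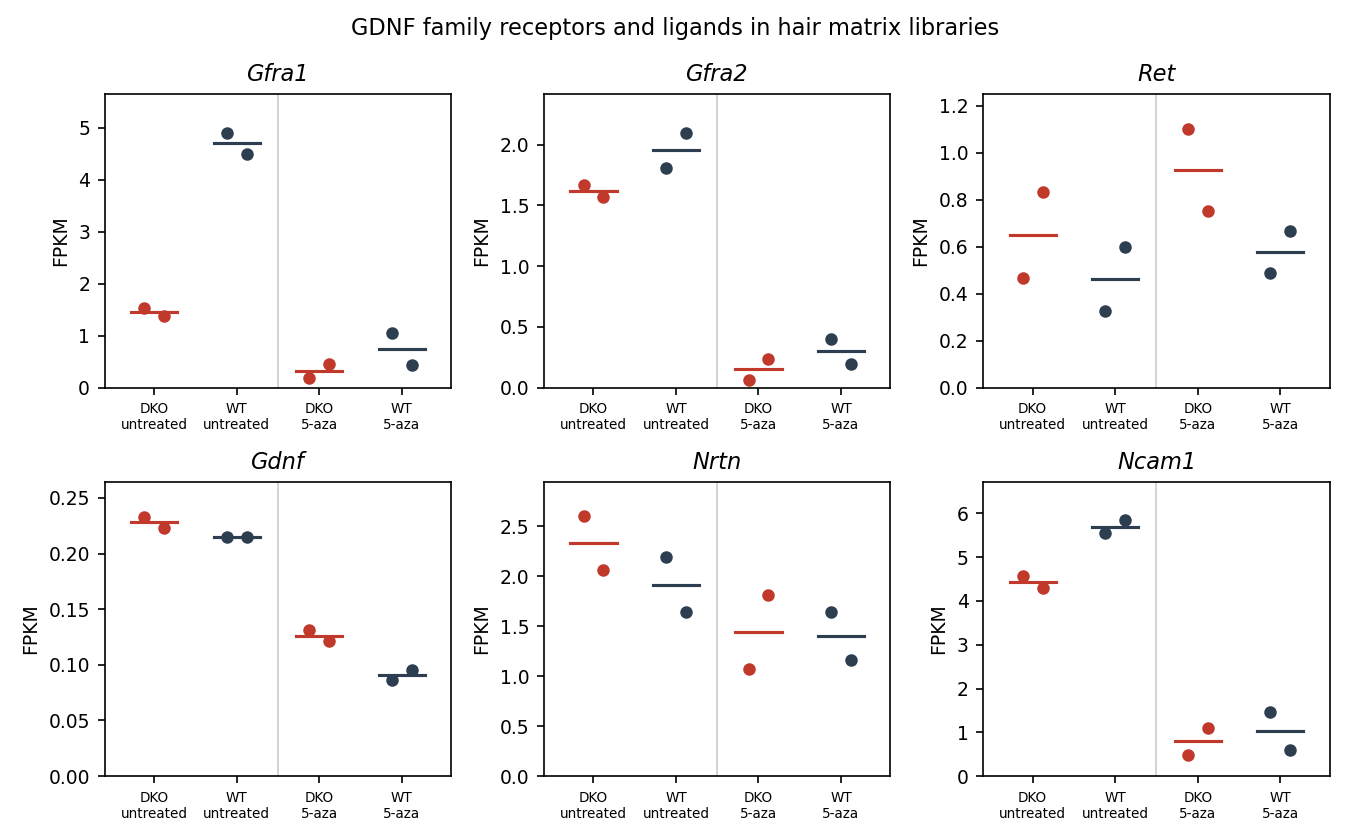
FPKM of the 6 genes in each library (points, replicate 1 left of replicate 2) with the group mean (line), for DKO and WT, untreated on the left of each panel and after 5-aza on the right; the vertical axes differ between genes. The untreated DKO libraries of Gfra1, at 1.54 and 1.37 FPKM, lie far below the WT libraries at 4.91 and 4.5 FPKM, and after 5-aza the genotypes overlap for Gfra1, Gfra2, Nrtn and Ncam1.

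All 6 genes passed the filter on low values in both tables. In untreated cells Gfra1, Gfra2 and Ncam1 were lower in both DKO libraries than in both WT libraries and Gdnf was higher in both. Over all tested genes 19.3% lay lower and 24.1% higher in this way. Gfra1 was the 1 member called by the authors' deposited table, in which 0.486% of listed genes were called lower and 0.793% higher, and nothing is read from these counts because the same contrast chose Gfra1. The median log2 difference of the 6 genes was -0.08, beside 0.01 over all tested genes.

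After 5-aza Ret and Gdnf were higher in both DKO libraries, as were 28% of tested genes, and 0 members were lower in both, beside 11.6% of tested genes. By limma 0 of the 6 passed an adjusted p of 0.05 and 0 passed an unadjusted p of 0.05. Over the 16856 tested genes, 0% passed the adjusted p, and 6.64% were higher and 2.3% lower at the unadjusted p. By the authors' deposited table, 0 members passed an adjusted p of 0.05, where 0.547% of listed genes were called higher and 0.161% lower, and Ret alone passed an unadjusted p of 0.05. The median difference of the 6 genes was -0.07, beside 0.03 over all tested genes. Whether the genotype difference of any member changed with 5-aza was not tested.

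**Figure D2:**
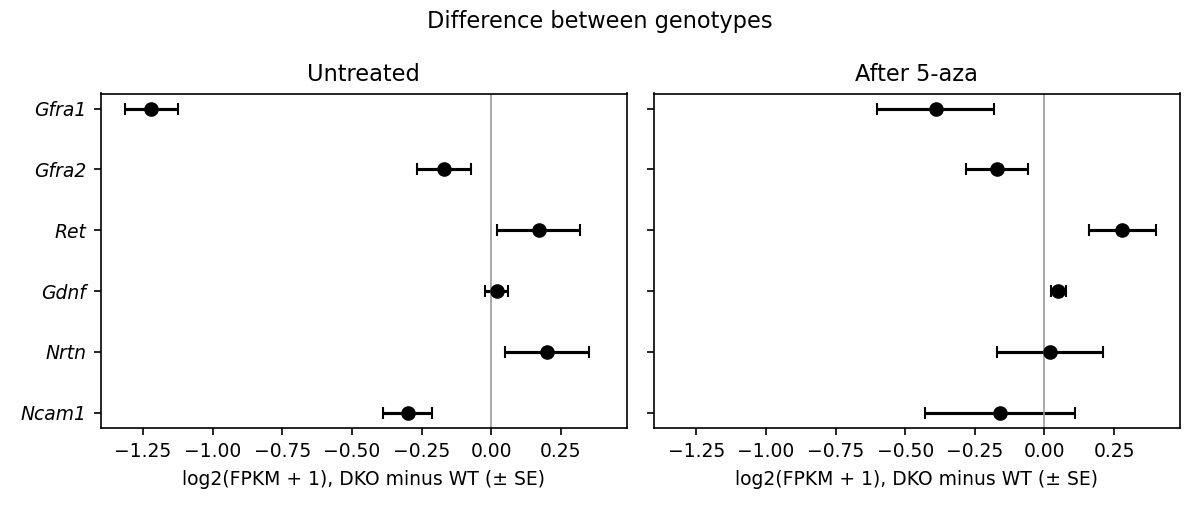
Log2(FPKM + 1) difference, DKO minus WT, of each of the 6 genes (point) with its SE from limma (bar), untreated on the left and after 5-aza on the right. Gfra1 stands at -1.22 in untreated cells and at -0.39 with a wider SE after 5-aza, and Ret lies above 0 in both.

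The order of the levels per length differed between groups. In untreated DKO it was Ncam1, Nrtn, Gfra2, Gfra1, Ret and Gdnf, and in untreated WT it was Ncam1, Gfra1, Gfra2, Nrtn, Ret and Gdnf. Gfra2 and Nrtn overlapped in untreated WT, so their order there is not resolved. After 5-aza the order of means was Nrtn, Ret, Ncam1, Gfra1, Gfra2 and Gdnf in DKO and Nrtn, Ncam1, Gfra1, Ret, Gfra2 and Gdnf in WT. The spread between the 2 libraries of a group was then wide, and many neighbours in this order overlapped. Ret was the 1 member with a higher mean in the 5-aza table than in the untreated table, in both genotypes, while the other 5 had lower means there. Because the tables were processed differently, this cannot be told apart from the processing.

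The libraries that were high after 5-aza were shared among members. WT replicate 1 and DKO replicate 2 were the higher libraries of their genotype for Gfra1, Gfra2, Nrtn and Ncam1. Ret had the reverse order, with DKO replicate 1 and WT replicate 2 the higher. Over the 8 libraries, with the mean of each table subtracted, Pearson's r was 0.92 between Gfra2 and Ncam1, 0.77 between Gfra1 and Gfra2, 0.75 between Gfra1 and Ncam1, and -0.64 between Gfra1 and Ret. These are descriptions, and the libraries share depth and treatment within a table.

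By the same measure, among 15699 genes tested in both tables, the genes most like Gfra1 were Dio2, which encodes the deiodinase that activates thyroid hormone (r = 0.995), Hs6st2, a heparan sulfate sulfotransferase (0.995), and Slc25a23, a mitochondrial carrier (0.994). Dio2 was at 4.37 and 3.75 FPKM in untreated DKO against 16.1 and 16.5 FPKM in untreated WT, and at 0.671 and 1.07 against 2.99 and 1.17 FPKM after 5-aza. WT replicate 1 was its highest and DKO replicate 1 its lowest library after 5-aza, as for Gfra1, but its genotypes did not overlap there. The nearest to Gfra2 was Serpinf1, a secreted serpin (0.995), followed by Reck (0.981) and Pcdhgc3 (0.977), and the nearest to Ncam1 were Fndc3b (0.999), Prss12 (0.996) and the cadherin Cdh11 (0.992). Ret was nearest to Nploc4 (0.99), Smad5 (0.987) and Rerg (0.986). Gdnf was nearest to Adar (0.993), Mzt1 (0.98) and Vps4b (0.973), and Nrtn to Mgarp (0.988), Ceacam1 (0.967) and 4930509G22Rik (0.965). The coefficients carry no p.

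The summed level of 16 dermal papilla markers was 284 and 268 FPKM in untreated DKO against 413 and 416 FPKM in untreated WT, with DKO over WT of 0.666, and the median log2 difference was -0.55. Of the 16, 8 were lower and 0 higher in the authors' deposited table, beside 0.486% lower and 0.793% higher over all listed genes. Corin, a protease of the papilla and 1 of the 8, was at 5.68 and 6.35 FPKM in DKO against 13.6 and 13.5 FPKM in WT. By limma 0 of the 16 passed the adjusted p and 10 were lower at an unadjusted p of 0.05, beside 0.00577% of tested genes past the adjusted p in either direction and 4.73% lower and 6.72% higher at the unadjusted p. After 5-aza the sum was 38.6 and 84.1 FPKM in DKO against 147 and 60.4 FPKM in WT, again highest in WT replicate 1 and, within DKO, in replicate 2, and no marker of the list was called by limma at the adjusted p, by limma at the unadjusted p or in the authors' deposited table. None of the 16 was at 0 in any table, so the libraries held this RNA. Not every marker was lower: Wif1 averaged 64.2 FPKM in untreated DKO and 65.2 FPKM in untreated WT, and Fgf10 averaged 17.5 and 17.2 FPKM. After 5-aza 2 markers, Prdm1 and Notum, were higher in both DKO libraries. Another 4, Rspo3, Sox2, Fgf10 and Crabp1, were lower in both. Over all tested genes 28% lay higher and 11.6% lower in this way after 5-aza. Wif1, Fgf10, Prdm1, Notum and Sox2 were named after their values were seen. In bulk RNA, fewer cells of a type and less RNA per cell cannot be told apart.

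Set against that sum, the members did not share 1 ratio. This ratio was chosen after the values were seen and carries no test. Per 100 FPKM of the dermal papilla sum, Gfra1 was 0.542 and 0.511 in untreated DKO against 1.19 and 1.08 in untreated WT, so it was lower in DKO than the sum itself was. After 5-aza the ratio was 0.484 and 0.533 in DKO against 0.722 and 0.705 in WT, and the genotypes did not overlap. Ncam1 went the other way, at 1.61 and 1.6 in untreated DKO against 1.34 and 1.4 in untreated WT, and at 1.27 and 1.3 against 0.994 and 0.987 after 5-aza. Gfra2 was 0.588 and 0.587 in untreated DKO against 0.437 and 0.505 in untreated WT, and 0.157 and 0.283 against 0.275 and 0.318 after 5-aza, where the genotypes overlapped. The part of dermal papilla RNA in the level of each gene was not tested.

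**Figure D3:**
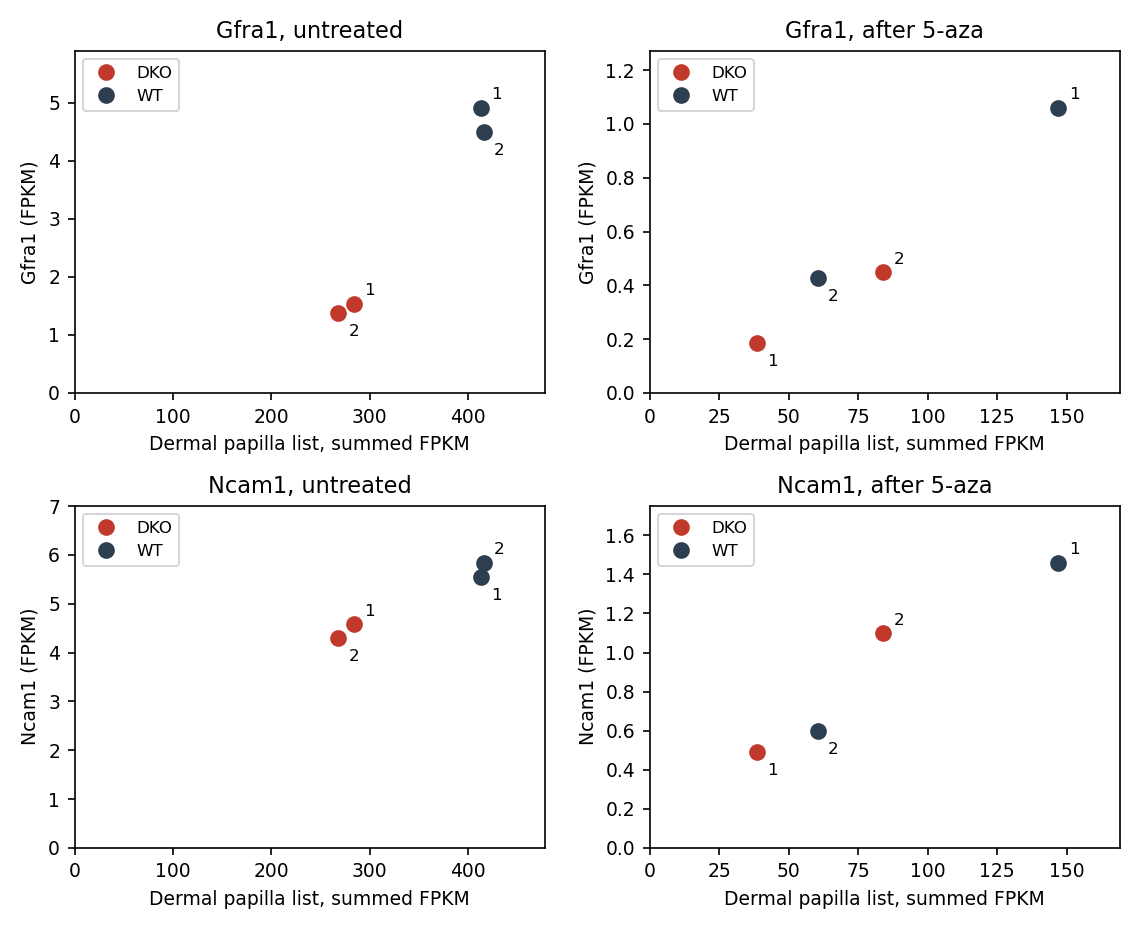
FPKM of Gfra1 (top) and Ncam1 (bottom) against the summed FPKM of 16 dermal papilla markers, one point per library with its replicate number, untreated on the left and after 5-aza on the right. In untreated cells the DKO libraries have both the lower sums, 284 and 268 FPKM, and the lower Gfra1, and after 5-aza WT replicate 1 is highest on both axes.

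Other marker lists were read for the cells in which these genes are otherwise known. Matrix keratinocyte markers summed to 1160 and 1350 FPKM in untreated DKO against 677 and 798 FPKM in untreated WT. Of the 15 listed, 7 were higher and 1, Trps1, was lower in the authors' deposited table, beside 0.793% and 0.486% of all listed genes. Krt5 was the largest part of these sums, at 544 and 578 FPKM in DKO against 298 and 372 FPKM in WT. Krt14 was at 175 and 209 against 71.9 and 84.7 FPKM. Not every marker differed in this way: Msx2 averaged 17.9 FPKM in untreated DKO and 17.0 FPKM in untreated WT, and Dlx3 80.6 and 80.9 FPKM. Both were named after their values were seen. After 5-aza the matrix keratinocyte markers summed to 864 and 906 FPKM in DKO against 656 and 658 FPKM in WT. Of these, 4 were higher and 0 lower in the authors' deposited table, beside 0.547% and 0.161%. Schwann cell markers summed to 30.5 and 34.5 FPKM in untreated DKO against 31.0 and 29.4 FPKM in untreated WT. The defining Schwann cell gene Sox10 was at 0.172 and 0.14 against 0.155 and 0.18 FPKM, and S100b, at 2.07 and 2.25 against 6.48 and 5.78 FPKM, was the 1 gene of the 12 called in the authors' deposited table of untreated libraries, lower in DKO. After 5-aza the Schwann cell sum was 22.9 and 24.8 FPKM in DKO against 21.4 and 18.5 FPKM in WT. Erbb3, at 20.3 and 18.8 against 13.2 and 14.3 FPKM, was the 1 gene called in the authors' deposited table, higher in DKO (DESeq2, adjusted p = 0.0448). The shares called over all listed genes are those given above beside the matrix keratinocyte markers. Skeletal muscle markers, of interest because muscle expresses Ncam1, summed to 3.38 and 3.28 FPKM in untreated DKO against 2.85 and 2.67 FPKM in untreated WT, where Ncam1 was lower in DKO. Fibroblast markers summed to 1400 and 1170 FPKM in untreated DKO against 494 and 1300 FPKM in untreated WT, and overlapped, as they did after 5-aza at 109 and 152 against 157 and 80.4 FPKM. Immune markers summed to 14.7 and 17.7 FPKM in untreated DKO against 4.99 and 7.89 FPKM in untreated WT, where Gfra1 was lower in DKO. Melanocyte markers summed to 43.0 and 44.5 FPKM in untreated DKO against 35.2 and 36.7 FPKM in untreated WT, higher in both DKO libraries. After 5-aza they summed to 30.1 and 144 FPKM in DKO against 100 and 22.6 FPKM in WT, high in DKO replicate 2 and WT replicate 1, the higher Gfra1 library of each genotype. Endothelial markers summed to 5.99 and 4.74 FPKM in untreated DKO against 2.81 and 2.11 FPKM in untreated WT, and Merkel cell markers to 2.15 and 2.08 against 1.92 and 1.21 FPKM. The Merkel cell sum after 5-aza was 0.604 and 0.646 FPKM in DKO against 0.856 and 0.667 FPKM in WT. After 5-aza the sums of the muscle, immune and endothelial lists were 0.557 and 0.577, 1.7 and 2.19, and 0.559 and 1.1 FPKM in DKO, against 0.408 and 0.471, 1.7 and 1.25, and 1.03 and 0.481 FPKM in WT. Among the genes of these lists that a table held, no gene was at 0 in all 4 libraries. Genes absent from a table were not counted. Of the muscle list 10 of 11 genes were listed in untreated cells, and of the matrix keratinocyte list 15 of 16 in each table. The part of these cells in the members' levels was not tested.

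Other genes of the pathway were read from 5 lists of 84 genes, of which 80 were listed and 72 tested in untreated cells, and 79 listed and 69 tested after 5-aza. Of those listed, 4 were lower and 0 higher in untreated DKO in the authors' deposited table, a share of 5.0%, beside 0.486% lower and 0.793% higher over all listed genes. After 5-aza 1 was higher and 0 lower in that table, 1.27% of those listed, beside 0.547% higher and 0.161% lower over all listed genes. By limma 0 passed the adjusted p in either comparison, and at an unadjusted p of 0.05 there were 6 higher and 6 lower in untreated cells and 8 higher and 1 lower after 5-aza. Over all tested genes 6.72% were higher and 4.73% lower at that p in untreated cells, and 6.64% and 2.3% after 5-aza. Both DKO libraries lay above both WT libraries for 19 genes and below for 16 in untreated cells, and for 20 and 8 after 5-aza. Over all tested genes the shares were 24.1% above and 19.3% below in untreated cells, and 28% and 11.6% after 5-aza. The median difference was -0.01 in untreated cells and 0.05 after 5-aza, beside 0.01 and 0.03 over all tested genes.

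Of the 12 co-receptors and partners of NCAM, 3 were lower and 0 higher in untreated DKO in the authors' deposited table. Over all listed genes 0.486% were called lower there and 0.793% higher. Sdc3, a heparan sulfate proteoglycan that binds GDNF, was at 5.07 and 4.45 FPKM in DKO against 6.87 and 6.65 FPKM in WT, and in the authors' deposited table the difference was -0.53 ± 0.15 with an adjusted p of 0.0372 by DESeq2. St8sia2, a sialyltransferase that adds polysialic acid to NCAM, was at 0.977 and 0.921 FPKM in DKO against 2.26 and 2.06 FPKM in WT, with -1.22 ± 0.26 and an adjusted p of 0.000415 by DESeq2 in the authors' deposited table. Prnp, the prion protein gene, whose product binds NCAM, was at 51.1 and 34.8 FPKM in DKO against 84.4 and 72.9 FPKM in WT, with -0.9 ± 0.17 and an adjusted p of 4.18e-05 by DESeq2 in the authors' deposited table. In limma none of the 3 passed, with Benjamini-Hochberg adjusted p of 0.248, 0.14 and 0.295. After 5-aza all 3 genes overlapped between genotypes. Sorl1, a sorting receptor for GDNF and the next in mean FPKM over all 8 libraries after Prnp, was at 7.8 and 8.91 FPKM in untreated DKO against 7.17 and 9.36 FPKM in untreated WT. In untreated cells Fgfr1, a receptor that can associate with NCAM, was at 6.56 and 6.59 FPKM in DKO against 12.9 and 8.31 FPKM in WT, and was not called in the authors' deposited table (DESeq2, adjusted p = 0.825) or by limma (adjusted p = 0.403). Fgfr1 was named after its values were seen.

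Cxcr4, a chemokine receptor that GDNF raises in other cell systems, was at 7.46 and 5.21 FPKM in untreated DKO against 17.7 and 12.6 FPKM in untreated WT. It was the 1 of 15 listed response genes that was lower in the authors' deposited table, where 0.486% of all listed genes were lower. The difference there was -1.29 ± 0.23 with an adjusted p of 4.18e-06 by DESeq2 (limma, adjusted p = 0.223). After 5-aza Wnt11, a target of RET signalling in the ureteric bud of the kidney, was at 2.5 and 1.87 FPKM in DKO against 0.828 and 1.09 FPKM in WT. The DKO minus WT log2 difference was 1.11 ± 0.23 with an adjusted p of 0.000613 by DESeq2 in the authors' deposited table. It did not pass the threshold in limma (adjusted p = 0.365). In untreated cells Wnt11 was at 1.89 and 2.53 FPKM in DKO against 1.63 FPKM in each WT library, and was not called. On the same list, 3 of 15 tested genes were higher and 4 lower in both DKO libraries after 5-aza. Over all tested genes the shares were 28% higher and 11.6% lower. Those below WT included Etv4 and Etv5, transcription factor genes induced by RET signalling in the ureteric bud, at 5.3 and 5.01 against 7.01 and 5.86 FPKM and at 3.81 and 3.63 against 4.73 and 3.96 FPKM. They also included Spry4, an inhibitor of receptor tyrosine kinase signalling, at 1.95 and 1.86 FPKM in DKO against 3.15 and 2.6 FPKM in WT, with an adjusted p of 0.0528 by DESeq2 in the authors' deposited table. Myb was the remaining gene below WT, with a log2(FPKM + 1) difference of -0.25. Those above WT were Wnt11, Egr3 and Pou3f1, with differences of 0.7, 0.42 and 0.65 on that scale. Myb, Egr3 and Pou3f1 did not pass the threshold in limma (adjusted p = 0.619, 0.464 and 0.535). Etv4, Etv5, Spry4, Myb and Pou3f1 were named after their values were seen. Dusp6 and Egr3, the most abundant response genes, were at 11.2 and 12.1 against 7.92 and 11.7 FPKM and at 17.2 and 18.4 against 13.2 and 14.9 FPKM in untreated DKO and WT.

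The remaining lists were those of RET adaptors and kinases, of other family ligands and receptors, and of regulators of Gdnf or Ret. They held 0 genes called at the adjusted p by limma or in the authors' deposited table. At an unadjusted limma p of 0.05 in untreated cells, 3 of 32, 1 of 4 and 0 of 9 tested genes were higher, in that order. In the same comparison 1, 0 and 0 were lower. After 5-aza 3 of 31, 1 of 4 and 0 of 9 were higher and 0 lower. Over all tested genes 6.72% were higher and 4.73% lower at that p in untreated cells, and 6.64% and 2.3% after 5-aza. Akt1, a kinase downstream of RET, was at 20.2 and 19.7 FPKM in untreated DKO against 20.7 and 21.6 FPKM in untreated WT. Gfra3, the co-receptor for artemin, was at 5.51 and 4.18 FPKM in untreated DKO against 4.61 and 3.38 FPKM in untreated WT, the most abundant of the other family genes, followed by Pspn, which encodes persephin, at 1.05 and 2.06 against 1.21 and 0.744 FPKM. After 5-aza Gfra3 was at 1.71 and 1.31 FPKM in DKO against 0.833 and 1.1 FPKM in WT (limma, Benjamini-Hochberg adjusted p = 0.527). Gata3, a transcription factor upstream of Ret in the kidney, was at 14.7 in each untreated DKO library against 15.4 and 15.1 FPKM in untreated WT, and the retinoic acid receptor gene Rara at 2.71 and 3.37 against 3.07 and 3.59 FPKM.

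**Figure D4:**
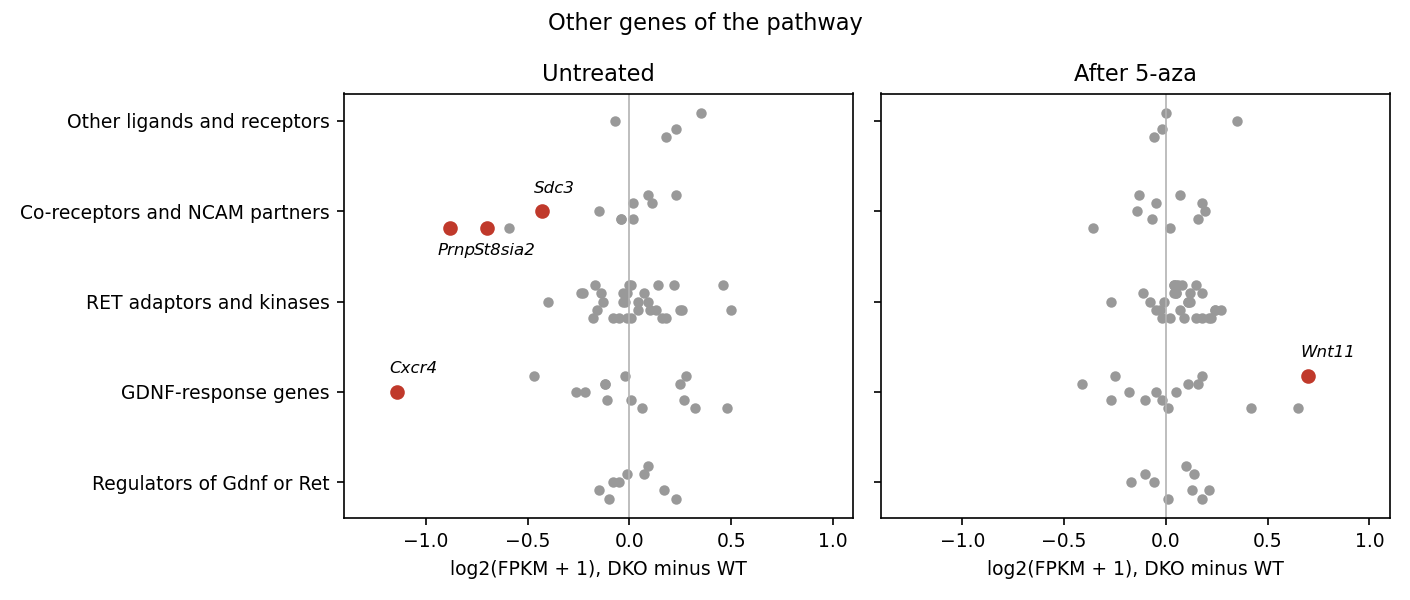
Log2(FPKM + 1) difference, DKO minus WT, of each tested gene in 5 pathway lists (points), untreated on the left and after 5-aza on the right; red points are genes past an adjusted p of 0.05 in the authors' deposited table. Sdc3, St8sia2, Prnp and Cxcr4 lie below 0 in untreated cells and Wnt11 above 0 after 5-aza.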

How the data were processed

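RNA was sequenced from sorted hair matrix keratinocytes in 4 groups of 2 libraries. Per the labels, RNA was prepared with 2 kinds of kit, one for messenger RNA and one for ribosome-depleted total RNA, with no group given for either. Sort markers are not given there. Per the submitters' processing notes, Trim Galore, STAR, HTSeq and DESeq2 were used with the builds GRCm38 and mm10; versions and the strand setting of the counting are not given in the sources used here. The authors deposited 1 table for untreated and 1 for 5-aza libraries. The authors divided reads by gene length and library total to make the FPKM in the deposited library columns, per the values: the headers name no unit, and value times length gave whole reads within 0.001. The deposited mean is a signal, reads divided by size factors. The deposited log2 fold changes run WT over DKO, and here the sign was turned. The deposited statistic is a score, and the deposited p-value columns are raw and adjusted values that the authors computed with DESeq2. The deposited length, of unit other, is in bases.

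Rows naming no gene (3 untreated, 5 after 5-aza) and 376 identifiers without FPKM were left out, and 0 library columns were unmapped. The fit was limma 3.58.1 (R 4.3.3) on log2(FPKM + 1), using a variance trend and the 4 libraries of each comparison. Tests were two-sided, with Benjamini-Hochberg adjustment over all tested genes and a threshold of 0.05. A gene was tested if 2 or more libraries reached 10 reads, scaled to the median library size, and its total reached 15 (17339 untreated, 16856 after 5-aza). A count model had been planned for whole counts only, and edgeR was not run. The members and lists were chosen with earlier results of these data known. Named genes were all members, list genes past either adjusted p, the 2 highest in FPKM of each pathway list and the 3 most correlated genes per member. One gene that this rule names is not reported here. Scripts were tested on simulated data. Promoter sequence is from RefSeq, GRCm38.p6, where 3 of the 6 members matched, and exon overlap was checked in GENCODE M21. Antisense genes Gm16277 (Gfra1) and Gm11149 (Ncam1) overlap members and had at most 2 reads in either table.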

Additional observations from a re-analysis of the deposited data

How the results depend on the processing

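Depth limits Gdnf most, since it rests on at most 26 reads per library. With 2 libraries a group, 5-aza values rest on single libraries. The member differences kept their direction under each alternative run, except Nrtn and Ncam1 after 5-aza. Nrtn (0.02) was -0.03 when scaled to reads in listed genes and -0.02 with median-ratio scaling, and -0.21 to 0.24 with 1 library left out. Ncam1 (-0.16) ranged over -0.48 to 0.15 with 1 library left out. A pseudocount of 0.1 in place of 1 gave larger differences after 5-aza, -0.98 for Gfra1 (-0.39), -0.72 for Gfra2 (-0.17), 0.59 for Ret (0.28), 0.25 for Gdnf (0.05) and -0.31 for Ncam1 (-0.16), none past the threshold, and in untreated cells -1.63 for Gfra1 (-1.22) and 0.41 for Ret (0.17). The added value compresses log2 differences, most at low FPKM, and 1 compresses them more than 0.1 does. After 5-aza 0 genes passed by limma, 1 with all 8 libraries in one fit. In untreated cells 1 gene passed, 8 with a pseudocount of 0.1, 0 with no filter on low values, 0 with no variance trend, 111 with all 8 libraries in one fit, and 0 to 0 with 1 library left out. With the replicate number as a block 13 passed in untreated cells and 0 after 5-aza, and no member passed after 5-aza; deviations of same-numbered libraries correlated at 0.03 untreated and -0.59 after 5-aza. A crossed pairing after 5-aza, chosen after seeing the data, called 91 genes, none of them a member.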
